A study of Saccharomyces cerevisiae with 8 samples.

Results

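The genes described here encode the enzymes and partner subunits that add acetyl groups to histones or take them off in budding yeast (Saccharomyces cerevisiae). They are 41 named genes of the SAGA, NuA4, NuA3, SAS, Rtt109, HAT-B, Rpd3, Hda1 and Set3 complexes and of the remaining deacetylases, taken by gene symbol from a fixed list and not by any measured value. All 41 were measured, each by 1 probe set, among 5449 genes tested. Transcript levels were measured in a wild type (wt) and in 3 single-gene deletion strains, dot1, swi4 and ard1. Each group has 2 arrays, which the labels name as biological replicates. Dot1 is a methyltransferase of the histone H3 core, Swi4 the DNA-binding subunit of the start-of-cycle transcription factor SBF, and Ard1 the catalytic subunit of the N-terminal protein acetyltransferase NatA. Every strain was grown in rich liquid medium at 30 C to an optical density of 0.7, and RNA was taken from whole cultures. The labels give no further strain genotype, mating type or age. The series title concerns Dot1, its histone mark and silencing.

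Histone acetyltransferases place acetyl groups on lysines of histone tails or cores, which loosens chromatin and is read by other factors, and deacetylases remove them. Both kinds of enzyme work inside complexes whose partner subunits bring them to promoters, gene bodies or newly made histones. In yeast the balance between them is a classic part of silencing. The SAS complex acetylates the histone H4 tail and thereby limits the spread of silent chromatin, where the mark of Dot1 is also scarce.

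The labels matched the arrays for the 3 deleted genes. DOT1 changed by −3.31 ± 0.15 (SE) on the log2 scale in dot1 (limma, adjusted p = 0.00106), SWI4 by −0.91 ± 0.14 in swi4 (adjusted p = 0.0130) and ARD1 by −5.23 ± 0.18 in ard1 (adjusted p = 1.29e-04). Without swi4 replicate 1 or 2, SWI4 changed by −0.90 and −0.91 and missed the threshold. SWI4 was dim, at 5.14 and 5.11 on the wt arrays and at 4.21 and 4.22 with swi4 deleted. The lowest gene mean was 4.02 and the 25th percentile of gene means 7.87. The second wt array stood apart from the first. It was higher for 37 of the 41 genes, by a median of 0.27, against 0.14 over all genes. Of the 41, 10 differed between the wt arrays by more than 0.5, as did 17.7% of all genes. For dot1, swi4 and ard1 the corresponding medians over the 41 genes were 0.08, 0.02 and 0.09. Of the 41, 5, 0 and 0 differed by more than 0.5, beside 10.2%, 0.459% and 1.16% of all genes. The genes called after either wt array was left out are therefore named with the counts. Among lists that mark the state of the cultures, stress genes called higher numbered 2, 4 and 2 of 7 in dot1, swi4 and ard1. Their median change was 0.59, 1.08 and −0.03. All 7 were above wt in dot1 and swi4, whereas 4 of the 7 were below it in ard1. Nucleolar growth genes called lower numbered 2, 2 and 2 of 7. S-phase histone genes called lower numbered 0, 4 and 0 of 6, and alpha-cell genes called lower 0, 1 and 4 of 5, while 0 of 7 a-cell genes were called in any mutant. The part of these shifts in the results below was not tested.

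Few of the 41 genes were called in any comparison of the main fit. That fit took the values as deposited from all 8 arrays and 4 groups, without a term for the replicate number. With 2 arrays a group, a gene that was not called may still have changed. Of the 41, 19 had a mean level below the 25th percentile of gene means. In dot1, limma called 0 of the 41 (adjusted p under 0.05), where 2.46% of all genes were called, and 5 of the 41 had an unadjusted p under 0.05, where 22.5% of all genes had. In swi4, 2 were called, SAS5 and UBP8, both lower, where 12.2% of all genes were called and 7.01% were called lower. In ard1, 2 were called, HST3 and UME1, again both lower, where 18.5% of all genes were called and 12.2% were called lower. Of ard1 against dot1, 3 were called, SAS2, SAS5 and YNG2, all higher in ard1 (14.1% of all genes called, 5.67% higher). Of swi4 against ard1, 3 were called, SAS5, SGF29 and YNG2, all lower in swi4 (15.3% of all genes called, 6.2% lower). Of swi4 against dot1, limma called 0 (1.01% of all genes), with 4 of the 41 and 11.7% of all genes at an unadjusted p under 0.05. In the order dot1, swi4 and ard1, the 41 genes had median absolute changes of 0.13, 0.21 and 0.20 against wt, beside 0.16, 0.22 and 0.21 over all genes. Single changes ran from −0.50 (NTO1) to 0.18 (SPT20) in dot1, from −0.69 (SAS3) to 0.27 (HST4) in swi4, and from −0.80 (HOS3) to 0.57 (HAT1) in ard1. The 3 comparisons against wt share the same 2 wt arrays.

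**Figure D1:**
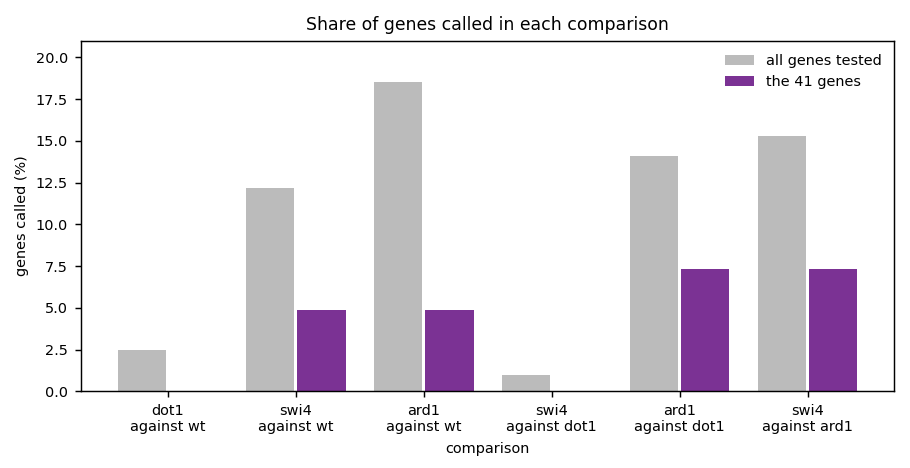
Share of genes called by limma (adjusted p under 0.05, percent) in each of the 6 comparisons, for all 5449 genes tested (grey) and for the 41 genes (purple). The purple bars stand at 0% in the comparisons of dot1 with wt and swi4 with dot1, and at 4.88% or 7.32% elsewhere.

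The counts moved when single arrays were left out. Such a fit leaves 1 array in a group, so a lost call does not show that it rested on the array left out. Called genes in dot1 numbered 4 without wt replicate 1 (HST3, NTO1, SAP30 and SAS2; 14.8% of all genes called) and 0 without wt replicate 2, dot1 replicate 1 or dot1 replicate 2 (0.202%, 0.22% and 0.0734%). In swi4 they numbered 13 without wt replicate 1 (26.3% of all genes), 1 without wt replicate 2 (SAS5; 4.73%) and 0 without swi4 replicate 1 or 2 (0.679% and 0.991%). The 13 were SAS5, UBP8, EPL1, GCN5, HDA2, HOS3, HST3, NTO1, PHO23, SAP30, SAS3, SPT3 and UME1, all lower, with changes from −0.99 (SAS3) to −0.39 (SAP30). In ard1 they numbered 4 without wt replicate 1 (HOS3, HST3, NTO1 and PHO23; 18.1%), 4 different genes without wt replicate 2 (HAT1, HAT2, SGF29 and YNG2; 17.5%) and 0 without ard1 replicate 1 or 2 (5.23% and 3.76%). For ard1 against dot1 they numbered 2 without dot1 replicate 1 or 2 (5.36% and 9.51% of all genes) and 0 without ard1 replicate 1 or 2 (1.54% and 1.87%). For swi4 against ard1 they numbered 0 without swi4 replicate 1 (1.03%) and 1, SAS5, without any of the other 3 arrays (2.62% to 3.54%).

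The balance of higher and lower values moved with the scaling. In the same order of mutants the median change of the 41 was −0.08, −0.18 and −0.01, where all genes had −0.07, −0.10 and −0.07. After median centring of the arrays all genes stood at 0.01, 0.00 and 0.01 and the 41 genes at −0.01, −0.08 and 0.06. Of the 41 genes, 30, 31 and 22 had a negative change against wt in dot1, swi4 and ard1, and 22, 24 and 16 had one after centring. After centring, 7 of the 41 were called in ard1, where 18.7% of all genes were called, with HOS3 and HST3 lower and HAT1, SGF29, SGF73, SPT20 and YNG2 higher, in place of 0 higher as deposited. The share of lower calls among all genes called in ard1 was 66.1% as deposited and 49.9% after centring, and in swi4 it was 57.6% and 41.2%. For ard1 against dot1 it was 59.8% and 48.8%. The median also rested on the wt arrays, since without wt replicate 2 it was 0.05, −0.04 and 0.12, and without wt replicate 1 it was −0.21, −0.37 and −0.11. Genes whose 2 mutant arrays both lay on one side of both wt arrays numbered 10 of 41 in dot1 (42.6% of all genes), 21 in swi4 (59.6%) and 21 in ard1 (57.0%).

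**Figure D2:**
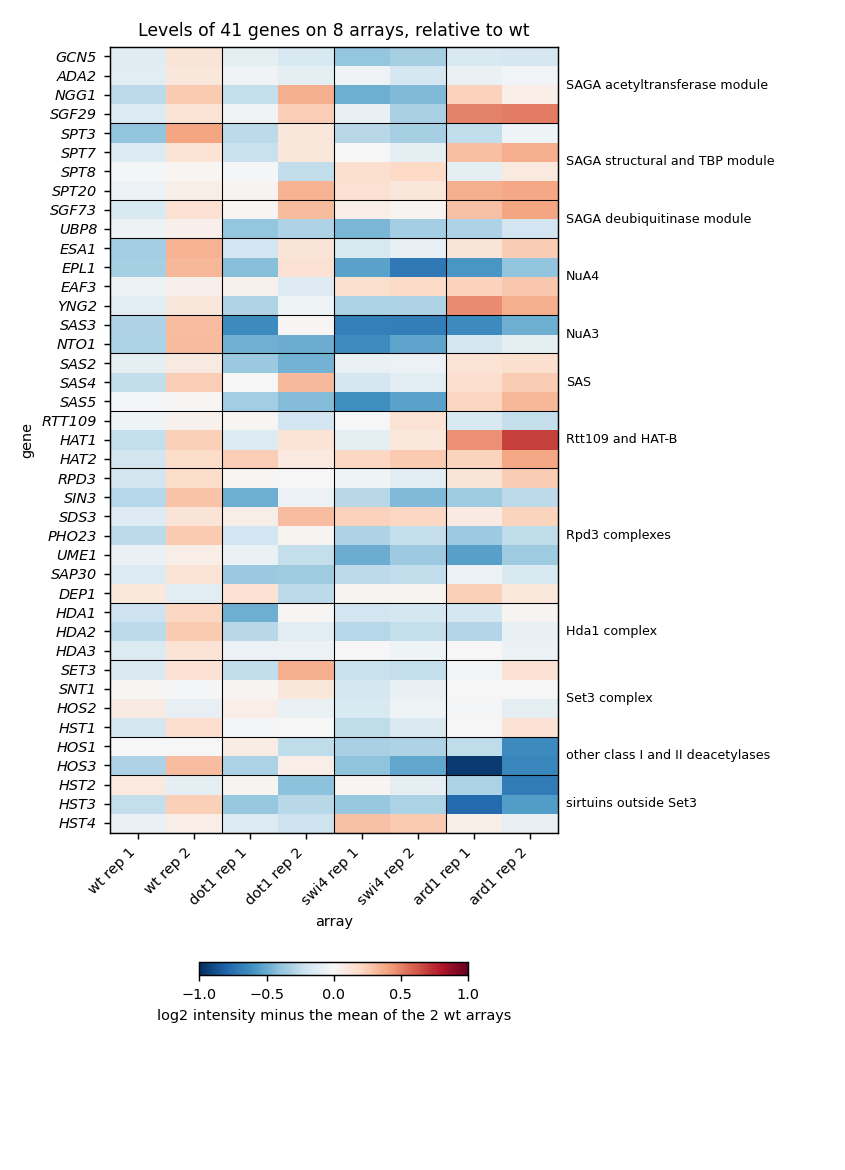
log2 intensity of each of the 41 genes (rows, grouped by complex) on each of the 8 arrays (columns), minus the mean of the 2 wt arrays. Red is above and blue below wt; the second wt array is above the first for 37 genes, and the deepest blue is HOS3 on the first ard1 array and the deepest red HAT1 on the second.

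**Figure D3:**
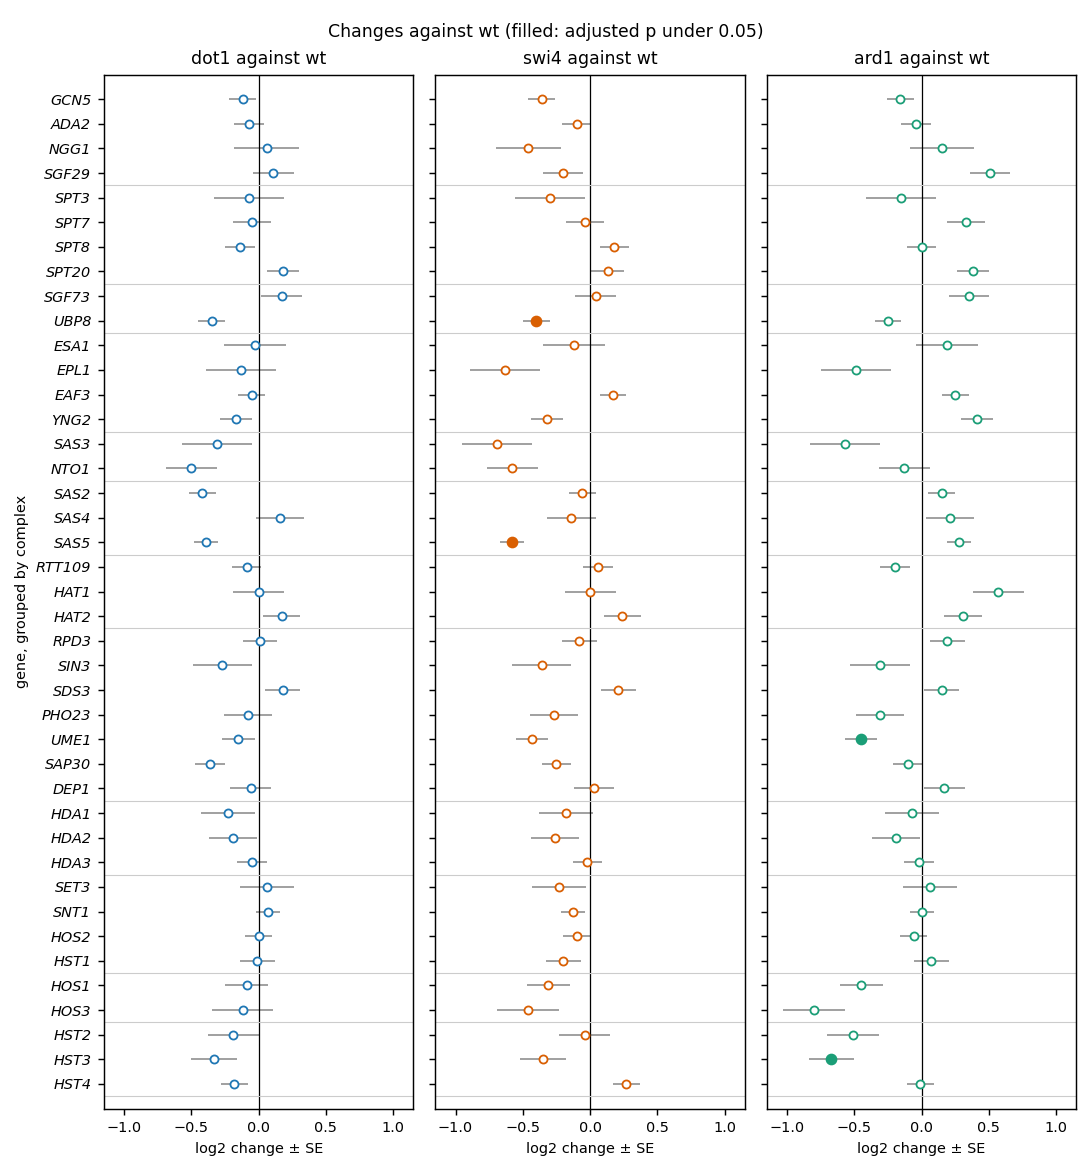
log2 change against wt with its standard error for the 41 genes in dot1, swi4 and ard1, grouped by complex. Filled points passed the threshold (SAS5 and UBP8 in swi4, HST3 and UME1 in ard1); open points did not.

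SAS5, of the SAS complex, passed the threshold in 3 of the 6 comparisons. It (YOR213C) encodes a subunit that the catalytic subunit Sas2 needs for activity. Its log2 intensity read 9.93 and 9.96 on the wt arrays, 9.60 and 9.51 with dot1 deleted, 9.33 and 9.41 with swi4 deleted, and 10.16 and 10.28 with ard1 deleted. None of the 4 groups overlapped another, with ard1 highest, then wt, dot1 and swi4. SAS5 fell in swi4 by 0.58 ± 0.09 on the log2 scale, 1.49-fold, against wt (limma, adjusted p = 0.0133). It was 1.58-fold higher in ard1 than in dot1 (log2 difference 0.66 ± 0.09, adjusted p = 0.00822) and 1.81-fold lower in swi4 than in ard1 (−0.85 ± 0.09, adjusted p = 0.00384). Against wt, dot1 gave −0.39 ± 0.09 (adjusted p = 0.0745) and ard1 0.28 ± 0.09 (adjusted p = 0.0832), neither past the threshold. The swi4 call against wt missed the threshold without swi4 replicate 1 or 2 (−0.54 and −0.62) and with only the 2 groups fitted, with adjusted p between 0.00690 and 0.128 over 11 alternatives. The ard1 and dot1 difference missed it without either ard1 array (0.72 and 0.60; 0.00378 to 0.0716 over 11 alternatives). The swi4 and ard1 difference missed it only without swi4 replicate 1 (−0.81; 0.00106 to 0.0531 over 11 alternatives).

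SAS2 (YMR127C), the catalytic subunit of the complex, read 6.95 and 7.13 on the wt arrays, 6.67 and 6.57 with dot1 deleted, 6.97 and 6.98 with swi4 deleted, and 7.18 and 7.20 with ard1 deleted. The dot1 arrays were the lowest and the ard1 arrays the highest, and the swi4 arrays fell inside the wt range. SAS2 was 1.48-fold higher in ard1 than in dot1 (0.57 ± 0.10, limma adjusted p = 0.0147). Against wt, dot1 gave −0.42 ± 0.10 (adjusted p = 0.0684), swi4 −0.06 ± 0.10 and ard1 0.15 ± 0.10, none past the threshold. The difference between ard1 and dot1 missed the threshold without dot1 replicate 2 (0.52) or either ard1 array (0.58 and 0.56), with adjusted p from 0.00714 to 0.105 over 10 alternatives. SAS4, which joins Sas2 and Sas5, was at 7.97 and 8.46 on the wt arrays, a gap wider than the median of 0.27. No comparison of SAS4 passed in the main fit. Its changes against wt were 0.16, −0.14 and 0.21 (SE 0.18) in dot1, swi4 and ard1.

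**Figure D4:**
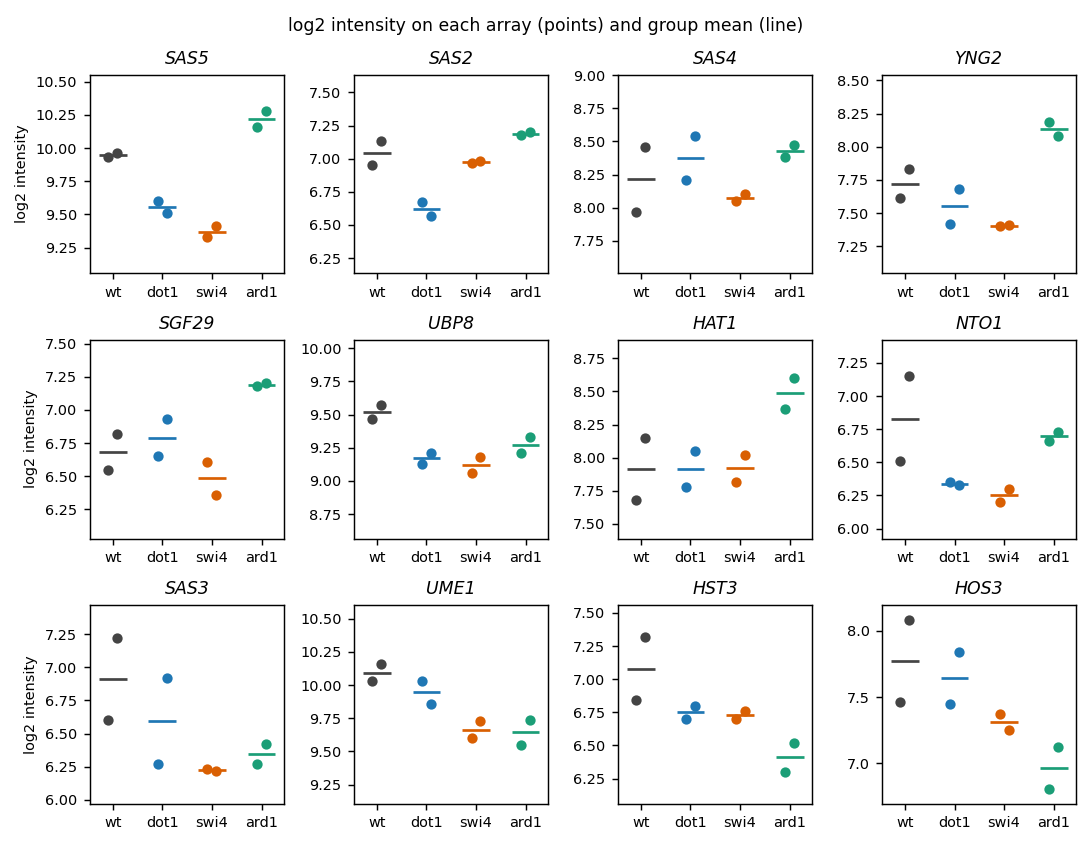
log2 intensity on each array (points) and group means (lines) for 12 genes: those called in any comparison of the main fit and 5 chosen for the text on their complexes. Each panel spans the same 1.5 log2 units; the groups of SAS5 do not overlap, whereas the 2 wt arrays of NTO1, SAS3 and HOS3 lie far apart.

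In NuA4, the essential complex that acetylates histones H4 and H2A, the accessory subunit gene YNG2 (YHR090C) differed between mutants. YNG2 read 7.61 and 7.83 on the wt arrays, 7.42 and 7.68 with dot1 deleted, 7.40 and 7.41 with swi4 deleted, and 8.19 and 8.08 with ard1 deleted. The ard1 arrays stood above all others and the swi4 arrays below all others. YNG2 was 1.65-fold lower in swi4 than in ard1 (−0.72 ± 0.12, limma adjusted p = 0.0132) and 1.5-fold higher in ard1 than in dot1 (0.58 ± 0.12, adjusted p = 0.0290). Against wt the change in ard1 was 0.41 ± 0.12 (adjusted p = 0.0662) and that in swi4 −0.32 ± 0.12 (adjusted p = 0.143). The swi4 and ard1 difference missed the threshold without any one of the 4 arrays (−0.67 to −0.78; adjusted p from 0.00133 to 0.108 over 10 alternatives). The ard1 and dot1 difference missed it without dot1 replicate 1 (0.45), ard1 replicate 1 (0.53) or ard1 replicate 2 (0.64), and with only the 2 groups fitted (0.0121 to 0.161 over 10 alternatives).

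The other NuA4 genes did not pass in any comparison of the main fit. EPL1, whose product anchors the catalytic core, read 6.85 and 7.52 on the wt arrays, 6.76 and 7.34 with dot1 deleted, 6.65 and 6.47 with swi4 deleted, and 6.60 and 6.79 with ard1 deleted. The swi4 and ard1 arrays lay below both wt arrays, but the wt arrays were 0.67 apart and the dot1 arrays 0.58. The change was −0.63 ± 0.26 in swi4 (limma adjusted p = 0.167; 0.0380 without wt replicate 1, and 0.0380 to 0.522 over 10 alternatives). ESA1, the catalytic subunit gene, changed by −0.03, −0.12 and 0.19 (SE 0.23) in dot1, swi4 and ard1. Its 95% confidence intervals reached from −0.57 to 0.51 in dot1 and from −0.35 to 0.73 in ard1. EAF3, a chromodomain subunit that also serves an Rpd3 complex, ranged from 10.45 to 10.85 on the 8 arrays, with changes of −0.05, 0.17 and 0.25 (SE 0.10). Both ard1 arrays lay above both wt arrays (95% confidence interval 0.02 to 0.47), and EAF3 was called in ard1 after quantile normalization (0.31) but not as deposited.

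In NuA3, which acetylates the histone H3 tail, both genes on the list had means below wt in every mutant, and neither passed. The catalytic subunit gene SAS3 read 6.60 and 7.22 on the wt arrays, 6.27 and 6.92 with dot1 deleted, 6.23 and 6.22 with swi4 deleted, and 6.27 and 6.42 with ard1 deleted. The swi4 and ard1 arrays lay below both wt arrays, and the changes were −0.31, −0.69 and −0.57 (SE 0.26; limma adjusted p = 0.541, 0.132 and 0.186). NTO1, a subunit that reads methylated H3, read 6.51 and 7.15 on the wt arrays, 6.35 and 6.33 with dot1 deleted, 6.20 and 6.30 with swi4 deleted, and 6.66 and 6.73 with ard1 deleted. Its ard1 arrays fell between the wt arrays, and the changes were −0.50, −0.58 and −0.13 (SE 0.19; adjusted p = 0.196, 0.0978 and 0.689). Without wt replicate 1, NTO1 was called lower in dot1 and swi4 (−0.81 and −0.90) and SAS3 in swi4 (−0.99). Of 10 alternatives each, these 3 results were called in 1, 2 and 2. Their adjusted p ran from 0.0202 to 0.497, from 0.00813 to 0.371 and from 0.0311 to 0.418. Outside the 41 genes, PDP3, which encodes a further NuA3 subunit, fell in swi4 by 0.77 ± 0.13 (adjusted p = 0.0159) and in ard1 by 0.48 ± 0.13 (adjusted p = 0.0471). PDP3 read 8.95 and 9.28 on the wt arrays, 8.79 and 8.93 with dot1 deleted, 8.39 and 8.30 with swi4 deleted, and 8.60 and 8.68 with ard1 deleted, so that no mutant overlapped wt. Both PDP3 calls missed the threshold without either array of the mutant (−0.82 and −0.73 in swi4, −0.43 and −0.52 in ard1), and the ard1 call also without wt replicate 2 (−0.31). YNG1, EAF6 and TAF14, the remaining NuA3 subunit genes, were not called in any mutant.

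SAGA, the coactivator complex that acetylates H3 and removes ubiquitin from H2B, was represented by 10 genes. In its acetyltransferase module SGF29 (YCL010C), which reads methylated H3, read 6.55 and 6.82 on the wt arrays, 6.65 and 6.93 with dot1 deleted, 6.61 and 6.36 with swi4 deleted, and 7.18 and 7.20 with ard1 deleted. The ard1 arrays stood above all 6 others, and the swi4 arrays overlapped those of wt. SGF29 was 1.63-fold lower in swi4 than in ard1 (−0.71 ± 0.15, limma adjusted p = 0.0257), and in ard1 it changed by 0.51 ± 0.15 against wt (adjusted p = 0.0609). The swi4 and ard1 difference missed the threshold without any one of the 4 arrays (−0.58 to −0.83; 0.00304 to 0.154 over 10 alternatives). GCN5, the catalytic subunit gene, read 8.96 and 9.21 on the wt arrays, 8.99 and 8.93 with dot1 deleted, 8.70 and 8.75 with swi4 deleted, and 8.93 and 8.92 with ard1 deleted. Its lowest values were those of swi4, with a change of −0.36 ± 0.10 that did not pass (adjusted p = 0.0725) but was called without wt replicate 1 (−0.48). NGG1, a scaffold of the module, changed by −0.46 ± 0.24 in swi4 (adjusted p = 0.238), and its 2 wt arrays, at 6.69 and 7.21, were 0.53 apart. NGG1 read 6.71 and 7.31 with dot1 deleted, 6.46 and 6.51 with swi4 deleted, and 7.18 and 7.02 with ard1 deleted. Its swi4 change ran from −0.73 to −0.20 over 10 alternatives and was called in 0. ADA2, the subunit that activates Gcn5, ranged from 5.31 to 5.59 over the 8 arrays.

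The 4 structural and TBP-binding SAGA genes SPT3, SPT7, SPT8 and SPT20 were not called in any comparison of the main fit. In ard1 SPT20 and SPT7, which hold the complex together, changed by 0.38 ± 0.12 (limma adjusted p = 0.0794) and 0.33 ± 0.14 (adjusted p = 0.171), with both ard1 arrays above both wt arrays. SPT20 was called in ard1 after median centring (0.45), after quantile normalization (0.46) and with a replicate block (0.38). With only the 2 groups fitted, SPT7 (−0.37) and SPT20 (−0.25) were called lower in swi4 than in ard1, where 40.9% of all genes were called. SPT3, which contacts the TATA-binding protein, was at 7.89 and 8.68 in wt. That gap of 0.79 was the widest between wt arrays among the 41 genes, and the standard error of its changes was 0.26. Without wt replicate 1, SPT3 changed by −0.70 in swi4.

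In the deubiquitinase module of SAGA, UBP8 (YMR223W), the ubiquitin protease gene, read 9.47 and 9.57 on the wt arrays, 9.13 and 9.21 with dot1 deleted, 9.06 and 9.18 with swi4 deleted, and 9.21 and 9.33 with ard1 deleted. All 6 mutant arrays lay below both wt arrays. UBP8 fell in swi4 by 0.40 ± 0.10, 1.32-fold (limma adjusted p = 0.0469), and changed by −0.35 ± 0.10 in dot1 and −0.25 ± 0.10 in ard1 without passing (adjusted p = 0.108 and 0.135). The call was made in 4 of 11 alternatives, with adjusted p from 0.0153 to 0.286. It was lost after median centring (−0.30), after quantile normalization (−0.29), with a trended prior, with only the 2 groups fitted, and without wt replicate 2 (−0.35), swi4 replicate 1 (−0.34) or swi4 replicate 2 (−0.46). SGF73, which anchors the module, was not called in the main fit and changed there by 0.17, 0.04 and 0.35 (SE 0.15) in dot1, swi4 and ard1. Of the module's genes outside the list of 41, SGF11, a partner that activates Ubp8, fell in swi4 by 0.57 ± 0.12 (adjusted p = 0.0272) and changed by −0.55 ± 0.12 in dot1 (adjusted p = 0.0591). SUS1, which is also part of an mRNA export complex, fell in ard1 by 0.47 ± 0.11 (adjusted p = 0.0326). The SGF11 call missed the threshold without wt replicate 2 (−0.51) or swi4 replicate 1 or 2 (−0.54 and −0.61). The SUS1 call missed it without wt replicate 2 (−0.36) or ard1 replicate 1 or 2 (−0.43 and −0.51).

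The HAT-B complex acetylates newly made histone H4, and Rtt109 acetylates newly made H3. HAT1, the catalytic subunit gene of HAT-B, read 7.68 and 8.15 on the wt arrays, 7.78 and 8.05 with dot1 deleted, 7.82 and 8.02 with swi4 deleted, and 8.37 and 8.60 with ard1 deleted. The ard1 arrays stood above all others, and dot1 and swi4 lay inside the wt range. The change in ard1 was 0.57 ± 0.19 (limma adjusted p = 0.0845), with a 95% confidence interval of 0.12 to 1.01, and it did not pass. It was called in 4 of 11 alternatives, among them median centring (0.64), quantile normalization (0.63) and leaving out wt replicate 2 (0.80), with adjusted p from 0.00702 to 0.363 over 11 alternatives. HAT2, its histone-binding partner, changed by 0.17, 0.24 and 0.31 (SE 0.14) in dot1, swi4 and ard1. HIF1, a histone chaperone of the same complex outside the 41 genes, rose in swi4 by 0.83 ± 0.14 (adjusted p = 0.0157) and in ard1 by 0.60 ± 0.14 (adjusted p = 0.0284), and changed by 0.08 ± 0.14 in dot1. HIF1 read 7.87 and 8.14 on the wt arrays, 8.17 and 8.01 with dot1 deleted, 8.73 and 8.93 with swi4 deleted, and 8.51 and 8.70 with ard1 deleted. Both calls missed the threshold without either array of the mutant (0.93 and 0.73 in swi4, 0.70 and 0.51 in ard1), and the ard1 call also without wt replicate 1 (0.47). RTT109 was not called and ranged from 7.67 to 8.04 over the 8 arrays.

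**Figure D5:**
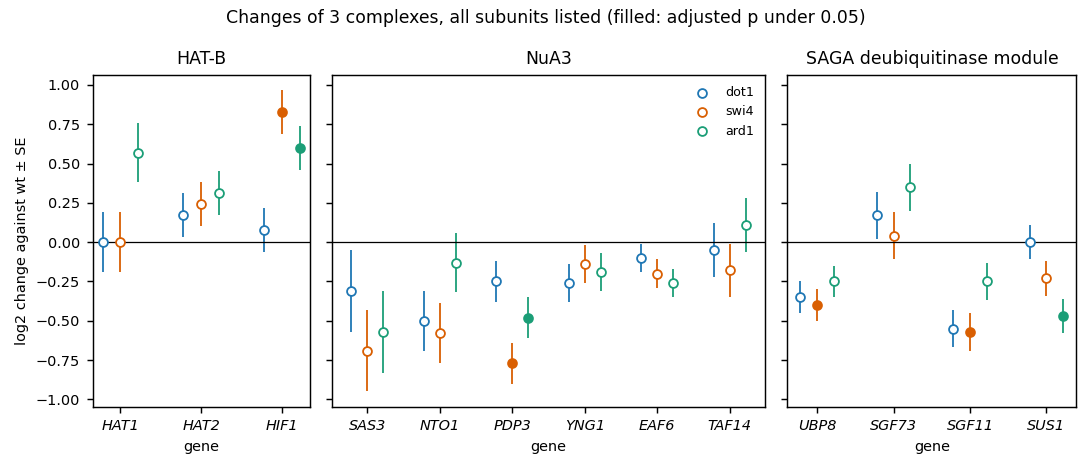
log2 change against wt with its standard error in dot1, swi4 and ard1 for the subunit genes of HAT-B, NuA3 and the SAGA deubiquitinase module, shown after their values were seen. Filled points passed the threshold: HIF1 (0.83 and 0.60) and PDP3 (−0.77 and −0.48) in swi4 and ard1, UBP8 and SGF11 in swi4, and SUS1 in ard1.

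Among the deacetylases, the genes of the Rpd3 complexes included 1 that was called. UME1 (YPL139C), a WD-repeat subunit, read 10.03 and 10.16 on the wt arrays, 10.03 and 9.86 with dot1 deleted, 9.60 and 9.73 with swi4 deleted, and 9.55 and 9.74 with ard1 deleted. The swi4 and ard1 arrays occupied the same low range, below those of wt and dot1. UME1 fell in ard1 by 0.45 ± 0.12, 1.37-fold (limma adjusted p = 0.0412), and changed by −0.43 ± 0.12 in swi4 (adjusted p = 0.0588), which was called without wt replicate 1 (−0.50). The ard1 call was made in 4 of 11 alternatives, with adjusted p from 0.0242 to 0.215. It was lost after median centring (−0.38), with a trended prior, with only the 2 groups fitted, and with any one of the 4 arrays left out (−0.51 and −0.39 without the first and second wt array, −0.35 and −0.55 without the first and second ard1 array).

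RPD3 itself, the catalytic subunit gene, read 10.00 and 10.36 on the wt arrays, 10.20 and 10.18 with dot1 deleted, 10.14 and 10.07 with swi4 deleted, and 10.31 and 10.43 with ard1 deleted. It changed by 0.01, −0.08 and 0.19 (SE 0.13), and its 95% confidence intervals lay within −0.39 and 0.50 in all 3 mutants. SIN3, the scaffold gene, changed by −0.27, −0.36 and −0.31 (SE 0.22) with its wt arrays 0.57 apart at 10.07 and 10.64. SAP30, a subunit of the large Rpd3 complex, read 7.49 and 7.76 on the wt arrays and 7.25 and 7.27 with dot1 deleted. It read 7.36 and 7.38 with swi4 deleted, and 7.57 and 7.47 with ard1 deleted. Its change of −0.36 ± 0.11 in dot1 did not pass (limma adjusted p = 0.126; called without wt replicate 1 at −0.49, and 0.0333 to 0.454 over 10 alternatives). SDS3, PHO23 and DEP1 were not called in any comparison of the main fit, where their changes against wt ran from −0.31 to 0.21. Without wt replicate 1, PHO23 changed by −0.53 in swi4 and by −0.57 in ard1.

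No gene of the Hda1 complex or of the Set3 complex was called in any comparison of the main fit. With only the 2 groups fitted, SET3 (−0.30) and HST1 (−0.27) were called lower in swi4 than in ard1, where 40.9% of all genes were called. Without wt replicate 1, HDA2 changed by −0.53 in swi4. The changes that follow are those of the main fit. HDA1, the catalytic subunit gene, changed by −0.23, −0.18 and −0.07 (SE 0.20) in dot1, swi4 and ard1, and its partners HDA2 and HDA3 by −0.26 to −0.02. The Set3 complex holds the deacetylases Hos2 and Hst1. HOS2 ranged from 7.70 to 7.93 over the 8 arrays and changed by 0.00, −0.10 and −0.06 (SE 0.10), with 95% confidence intervals within −0.35 and 0.25. HST1, a sirtuin and the closest relative of the silencing deacetylase Sir2, changed by −0.01, −0.20 and 0.07 (SE 0.13). SET3 and SNT1, the scaffold subunits, changed by −0.23 to 0.07.

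HOS3, a deacetylase gene outside these complexes, had the largest change against wt of the 41 genes and did not pass. It read 7.46 and 8.08 on the wt arrays, 7.45 and 7.84 with dot1 deleted, 7.37 and 7.25 with swi4 deleted, and 6.81 and 7.12 with ard1 deleted. The ard1 arrays were the lowest, and the wt arrays were 0.62 apart. The change in ard1 was −0.80 ± 0.23, 1.75-fold lower, with an adjusted p of 0.0565 in limma. It was called in 5 of 10 alternatives, among them median centring (−0.73), quantile normalization (−0.71) and leaving out wt replicate 1 (−1.11), with adjusted p from 0.0132 to 0.253. HOS1, a related deacetylase gene, was at 6.48 and 6.49 in wt and at 6.23 and 5.85 in ard1, a change of −0.45 ± 0.16 (adjusted p = 0.102).

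Of the sirtuins outside the Set3 complex, HST3 (YOR025W) fell in ard1. Hst3 and its relative Hst4 remove the acetyl group that Rtt109 places on the H3 core, and the HST3 transcript is known to peak late in the cell cycle. HST3 read 6.84 and 7.32 on the wt arrays, 6.70 and 6.80 with dot1 deleted, 6.70 and 6.76 with swi4 deleted, and 6.30 and 6.52 with ard1 deleted. All 6 mutant arrays lay below both wt arrays, with ard1 lowest. The fall in ard1 was 0.67 ± 0.17, 1.59-fold (limma adjusted p = 0.0365), and dot1 and swi4 gave −0.33 ± 0.17 and −0.35 ± 0.17 without passing (adjusted p = 0.304 and 0.214), though both were called without wt replicate 1 (−0.56 and −0.59). The ard1 call missed the threshold without wt replicate 2 (−0.43), ard1 replicate 1 (−0.55) or ard1 replicate 2 (−0.78) and with only the 2 groups fitted, with adjusted p from 0.00786 to 0.188 over 10 alternatives. HST4 was not called in the main fit. Its changes for dot1, swi4 and ard1 were −0.18, 0.27 and −0.01 (SE 0.10). Both swi4 arrays, at 8.68 and 8.65, lay above wt at 8.32 and 8.46. HST2, a mostly cytoplasmic sirtuin, was at 11.54 and 11.34 in wt and at 11.12 and 10.74 in ard1, a change of −0.51 ± 0.19 (adjusted p = 0.111). HST2 read 11.47 and 11.03 with dot1 deleted, and 11.46 and 11.34 with swi4 deleted. Its ard1 change ran from −0.70 to −0.32 over 11 alternatives and was called in 1.

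Mitotic genes shifted beside HST3. Of 6 such genes (CLB1, CLB2, CDC5, SWI5, CDC20 and BUD4), 0 were called in dot1, 4 fell in swi4 and 4 fell in ard1. Their summed intensity read 2706 and 3671 on the wt arrays, 2148 and 2809 for dot1, 1327 and 1416 for swi4, and 1637 and 1669 for ard1, and none was at 0. Both ard1 sums lay below both wt sums, as the HST3 values did. The swi4 sums were the lowest, and the median change of the mitotic genes was −1.09 there, beside −1.03 for ard1. HST3 changed by −0.35 with swi4 deleted, by −0.67 with ard1 deleted and by −0.33 with dot1 deleted, where the mitotic median was −0.42. Its difference between swi4 and ard1, 0.32 ± 0.17, did not pass (limma adjusted p = 0.241). In RNA from whole cultures, fewer cells in mitosis and less transcript per cell cannot be told apart. The part of the mitotic shift in the fall of HST3 was not tested.

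A list of 33 further genes outside the 41 holds genes of or working with the same complexes, apart from the acetyltransferase genes ELP3 and HPA2. Of the 33, limma called 0 in dot1 (2.46% of all genes), with 5 at an unadjusted p under 0.05 (22.5% of all genes). In swi4 it called 4 (12.2% of all genes), with HIF1 higher and PDP3, SGF11 and UME6 lower. In ard1 it called 4 (18.5% of all genes), with HIF1 and TAF9 higher and PDP3 and SUS1 lower. UME6, the DNA-binding subunit that brings Rpd3 to meiotic genes, fell in swi4 by 0.73 ± 0.18 (adjusted p = 0.0491) and changed by −0.65 ± 0.18 in ard1 (adjusted p = 0.0555). It read 7.54 and 7.94 on the wt arrays, 7.17 and 7.56 with dot1 deleted, 7.13 and 6.88 with swi4 deleted, and 7.10 and 7.08 with ard1 deleted. TAF9, shared by SAGA and TFIID, rose in ard1 by 0.63 ± 0.12 (adjusted p = 0.0168), where its arrays read 10.80 and 10.90 and the wt arrays 10.17 and 10.27. The UME6 call missed the threshold without wt replicate 2 (−0.54) or either swi4 array (−0.86 and −0.61), and the TAF9 call without either ard1 array (0.68 and 0.58). Between mutants, ASH1, a daughter-cell repressor that works with Rpd3, was higher in dot1 and swi4, at 10.41 to 10.95, than in ard1, at 9.82 and 9.74. The difference was −0.91 ± 0.17 for ard1 against dot1 (adjusted p = 0.0196) and 0.79 ± 0.17 for swi4 against ard1 (adjusted p = 0.0265), and ASH1 was not called against wt. SUS1 was also lower in ard1 than in dot1 (−0.47 ± 0.11, adjusted p = 0.0383), and EAF5, a NuA4 subunit gene, lower in swi4 than in ard1 (−0.80 ± 0.17, adjusted p = 0.0265). The ASH1 difference missed the threshold without either ard1 array for ard1 against dot1 (−0.95 and −0.86), and without any one of the 4 arrays for swi4 against ard1 (0.75 to 0.83). Those of SUS1 (−0.54 to −0.40) and EAF5 (−0.85 to −0.74) also missed it without any one of their 4 arrays.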

How the data were processed

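Yeast RNA (1 ug per sample) was amplified and labelled with biotin and hybridised to 1-colour Affymetrix arrays, per the labels' protocols. The intensity values that the authors deposited, 1 per probe set, are linear. The submitters' processing notes name RMA, and its version is not stated there. The median intensity per array was 623 to 713, and the number of arrays limits the precision. The values were transformed to log2. Of 5814 probe sets, 5498 had 1 gene symbol, 316 had none and 0 had several; 12 symbols were updated through the R64 gene table. The brightest probe set was used for 47 genes with several. The design allowed for values already on a log2 scale. Levels are not compared between genes, so the naming rule's genes of highest and lowest level are not named.

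Groups were compared with limma 3.58.1 in R 4.3.3 (lmFit, eBayes) in 1 fit over 8 arrays and 4 groups, with 4 residual and 2.73 prior degrees of freedom, two-sided, with Benjamini-Hochberg adjustment over 5449 genes within each of 6 comparisons. Unless stated, adjusted p and SE come from this fit with n = 2 per group. With 2 arrays a group, an exact permutation test (two-sided) cannot go below 0.333. The fit was tested on simulated data. The members, complexes and gene lists were chosen with earlier results of these data known. Genes described in full are those called in any comparison of the main fit and the 5 largest changes against wt in each mutant. Others named were chosen for their role in a complex. Alternatives were median centring, quantile normalization, a dim filter, a replicate block, mean probe sets, a trended prior, only 2 groups, and leaving out each array. Where 1 array is left in a group, it is assumed to vary like the others.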

Additional observations from a re-analysis of the deposited data

Results flagged for a closer look

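The changes of 4 genes differed between 2 mutants by a direct test of the difference. Between ard1 and dot1 these were YNG2 (0.58), SAS2 (0.57) and SAS5 (0.66), all higher in ard1 (limma). Between swi4 and ard1 they were SGF29 (−0.71), YNG2 (−0.72) and SAS5 (−0.85), all lower in swi4. Per-array values and the arrays without which each call missed the threshold stand with the genes above. Groups of 2 arrays were too small to look for outlying samples.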

How the results depend on the processing

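Called genes among the 41 numbered 0, 2 and 2 in dot1, swi4 and ard1 against wt. In the same order they numbered 0, 1 and 7 after median centring, 0, 1 and 11 after quantile normalization, 0, 3 and 1 without the dimmest 25% of genes (19 of the 41, HST3 among them, were then not tested), 0, 1 and 2 with a trended prior, and 0, 0 and 0 with only the 2 groups fitted. For ard1 against dot1 (3) and swi4 against ard1 (3) the counts were 5 and 4, 5 and 3, 1 and 1, 3 and 3, and 2 and 17 under these settings. Shares over all genes in these 2 comparisons were 17.8% and 18.5%, 17.8% and 18.6%, 16.8% and 18.3%, 15.9% and 17.9%, and 11.6% and 40.9%. In ard1 against wt the shares were 18.7%, 20.5%, 21.3%, 19.6% and 7.43% under the same settings, beside 18.5% in the main fit. In swi4 against wt, 725, 817, 657, 812 and 176 of all genes were called, beside 663 in the main fit. The dim filter left 4086 genes to test, against 5449 otherwise. Of the 17 genes called between swi4 and ard1, HST2, HST3 and HST4 were higher in swi4 than in ard1. The other 14 were lower, namely ESA1, HAT1, HST1, NGG1, NTO1, RPD3, SAS4, SAS5, SET3, SGF29, SGF73, SPT20, SPT7 and YNG2. Mean probe sets left every count as it was. Each of the 41 genes has 1 probe set, so this setting could not change their values and is no check on them. It is counted among the alternatives given with each gene. Swi4 against dot1 gave 0 under every setting. The labels number replicates 1 and 2 without saying what a number shares. Deviations of same-numbered arrays correlated at 0.35 to 0.75 over genes in the 6 pairs of groups; with 2 numbers this is a hint only. With a replicate block the counts were 3 (SAS2, SAS5 and UBP8, in dot1), 6 (GCN5, NTO1, SAS3, SAS5, UBP8 and UME1, in swi4) and 9 (HAT1, HOS1, HOS3, HST2, HST3, SGF29, SPT20, UME1 and YNG2, in ard1) against wt, 5 for ard1 against dot1 and 5 for swi4 against ard1, and over all genes 793, 1397 and 1517 against wt (134, 663 and 1006 without the block), 153 (55) for swi4 against dot1, 1582 (769) for ard1 against dot1 and 1547 (832) for swi4 against ard1. Over all genes, the 134 for dot1 became 233 after centring, 215 after quantile normalization, 216 without dim genes and 348 with the trended prior. With only the 2 groups fitted the 6 counts were 0, 176, 405, 16, 632 and 2227, and the trended prior gave 84 for swi4 against dot1. Leaving out 1 array gave 0 to 4, 0 to 13 and 0 to 4 called genes against wt, 0 to 2 for ard1 against dot1 and 0 to 1 for swi4 against ard1. Over all genes it gave 4 to 807, 37 to 1435 and 205 to 985 against wt, 12 to 38 for swi4 against dot1, 84 to 518 for ard1 against dot1 and 56 to 193 for swi4 against ard1. The median change of the 41 then ran from −0.21 to 0.05 in dot1, −0.37 to −0.04 in swi4 and −0.11 to 0.12 in ard1. DOT1 kept its change of −3.31 in dot1 with only the 2 groups fitted but missed the threshold (adjusted p = 0.0839), and SWI4 ran from −0.93 to −0.89 without 1 array. None of the changes of called genes, nor the 5 largest per mutant, reversed under any alternative. Among all 41 genes, the sign of the change against wt turned for 8, 7 and 6 after centring and 10, 5 and 5 after quantile normalization (ESA1, EAF3 and HST1 in dot1 and HOS2 in ard1 among them under both), none with a change above 0.10 in size as deposited. Apart from what the settings themselves remove, the cause of these differences was not tested.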
